A study of Mus musculus with 4 samples.

Results

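The 10 myosin heavy chain genes described here are Myh1, Myh2, Myh3, Myh4, Myh7 and Myh8 of skeletal muscle, Myh11 of smooth muscle, and Myh9, Myh10 and Myh14 of nonmuscle cells. They were taken by gene symbol from a table of 51826 genes, and all 10 were found in it. RNA had been sequenced from C2C12 cells, a mouse myoblast line that divides in growth medium and fuses into myotubes when serum is withdrawn. Recombinant GDF10, a growth factor related to TGF-beta and the BMPs, was given for 6 h in 2 biological replicates, and vehicle for 6 h in another 2, with all cells in growth medium. No genotype or dose of GDF10 is given in the labels, the cultures share 1 cell line, and an extraction label names longissimus dorsi muscle where all other labels name C2C12.

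Myosin II molecules are built from a pair of heavy chains, each with a motor head that pulls on actin and a coiled-coil tail that packs into filaments, and each heavy chain carries an essential and a regulatory light chain. The skeletal isoforms form the thick filaments of the sarcomere and follow one another in development: Myh3 encodes the embryonic and Myh8 the perinatal chain, Myh2, Myh1 and Myh4 encode the adult fast IIa, IIx and IIb chains, and Myh7 encodes the slow chain that heart muscle also uses. The nonmuscle chains IIA (Myh9), IIB (Myh10) and IIC (Myh14) drive cell migration, adhesion and cytokinesis, and Myh11 encodes the smooth muscle chain.

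Most of the skeletal genes, 5 of 6, lie side by side on the plus strand of mm10 chromosome 11, in the order Myh3, Myh2, Myh1, Myh4 and Myh8. Myh3 (ENSMUSG00000020908) spans 67078300 to 67102291, Myh2 67171027 to 67197517, Myh1 (ENSMUSG00000056328) 67200052 to 67224575, Myh4 67238029 to 67260446 and Myh8 67277124 to 67308634. The gaps between neighbours were 68.7 kb after Myh3, 2.5 kb between Myh2 and Myh1, 13.5 kb between Myh1 and Myh4, and 16.7 kb between Myh4 and Myh8. Myh10 (ENSMUSG00000020900) follows on the same strand, 1382.9 kb further on, at 68691559 to 68816632. The other members are on minus strands: Myh9 (ENSMUSG00000022443) on chromosome 15 at 77760587 to 77842175, Myh7 on chromosome 14 at 54970684 to 54994626, Myh11 on chromosome 16 at 14194535 to 14291372 and Myh14 on chromosome 7 at 44605803 to 44670843. Exons covered 6.02 to 12.93 kb per gene, counted once where transcripts overlap, against a median of 3.84 kb over all genes tested.

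Promoter sequences are shown for the genes whose levels differ most, the abundant Myh9 and Myh10, the skeletal Myh3 and Myh1, and Myh4, which lies 13.5 kb from Myh1 and had almost no counts. Each is the 250 bases before the start in RefSeq's promoter table for GRCm38.p6, 5′ to 3′ on the gene's strand: chr15:77842176-77842425 (minus) for Myh9, chr11:68691665-68691914 for Myh10, chr11:67078050-67078299 for Myh3, chr11:67199852-67200101 for Myh1 and chr11:67237562-67237811 for Myh4, the last 4 on the plus strand. RefSeq's starts differ from the outermost annotated ends given above for some genes. Capitals mark the CCAAT box, the TATA box letters TATAAA, the MCAT element (bound by TEAD factors, searched as CATTCC), and matches to the MEF2 site and the CArG box consensus, on either strand.
Myh9: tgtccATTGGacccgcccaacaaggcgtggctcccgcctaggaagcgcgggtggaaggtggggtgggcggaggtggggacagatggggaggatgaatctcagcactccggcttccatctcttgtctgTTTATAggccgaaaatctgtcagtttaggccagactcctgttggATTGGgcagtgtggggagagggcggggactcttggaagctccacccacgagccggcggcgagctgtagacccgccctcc
Myh10: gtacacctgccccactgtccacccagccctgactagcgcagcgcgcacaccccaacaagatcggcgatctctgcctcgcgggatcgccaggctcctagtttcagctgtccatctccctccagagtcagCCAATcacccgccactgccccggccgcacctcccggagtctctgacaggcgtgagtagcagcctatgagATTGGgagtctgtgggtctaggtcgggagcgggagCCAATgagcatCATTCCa
Myh3: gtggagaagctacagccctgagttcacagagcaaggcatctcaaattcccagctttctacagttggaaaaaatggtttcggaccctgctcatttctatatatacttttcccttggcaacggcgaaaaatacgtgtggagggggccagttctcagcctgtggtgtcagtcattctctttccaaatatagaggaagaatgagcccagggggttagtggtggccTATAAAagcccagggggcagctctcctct
Myh1: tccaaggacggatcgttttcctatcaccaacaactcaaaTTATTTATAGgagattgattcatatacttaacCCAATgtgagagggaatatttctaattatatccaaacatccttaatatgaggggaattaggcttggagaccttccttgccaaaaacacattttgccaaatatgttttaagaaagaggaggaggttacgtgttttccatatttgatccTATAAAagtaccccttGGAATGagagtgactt
Myh4: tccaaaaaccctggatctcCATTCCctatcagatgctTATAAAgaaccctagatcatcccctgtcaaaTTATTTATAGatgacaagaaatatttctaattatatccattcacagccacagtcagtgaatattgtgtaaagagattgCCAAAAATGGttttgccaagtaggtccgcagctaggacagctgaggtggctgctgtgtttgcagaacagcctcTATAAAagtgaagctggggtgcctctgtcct
RefSeq's table held 9 of the 10 genes, with a pair of entries for Myh7 and none for Myh11. The nonmuscle promoters had 14, 15 and 14 CG pairs in 250 bases for Myh9, Myh10 and Myh14, against 1 to 6 in those of the skeletal genes and a median of 6 over 32851 promoter windows of the same length. CCAAT occurred on either strand 2, 3 and 4 times in the Myh9, Myh10 and Myh14 windows, and 33.8% of all windows held it. Those of Myh1, Myh7 and Myh8 held it as well. The MEF2 consensus matched in Myh1, Myh4 and Myh8, against 2.92% of all windows, and there it overlaps a TATAAA match. TATAAA, held by 12.4% of all windows, stood within 32 bases of the start in Myh1, Myh3 and Myh4. The CArG box matched in Myh4 alone among the 9 genes, against 1.47% of all windows. The E-box CANNTG matched in 66.2% of all windows. It occurred in those of Myh3, Myh4, Myh7, Myh8, Myh9, Myh10 and Myh14, but not in those of Myh1 or Myh2. The windows of Myh14 and Myh9 thus shared a high CG count and CCAAT, although Myh14 had 0 to 2 counts per library. They differed in the GC box GGGCGG, with 4 matches in Myh9 and 0 in Myh14, and 32.7% of all windows held it. TATAAA matched in Myh9 but not in Myh14. Myh4 held the MEF2 match and the start-proximal TATAAA of Myh1 with 0 to 4 counts.

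Transcript levels are given in TPM, counts divided by exon length and scaled to the same sum in every library, so that genes can be compared. Myh9 stood highest, at 512 and 753 TPM in the GDF10 libraries and 642 and 737 TPM in the vehicle libraries, rank 218 of the 51826 genes by mean level. Its counts were 69792 and 114457 with GDF10 and 99955 and 94041 with vehicle, and both the lowest and the highest library were treated ones. Myh10 had 58.7 and 76.2 TPM with GDF10 and 79.6 and 80.4 TPM with vehicle. Both of these nonmuscle genes were far above every muscle isoform in dividing myoblasts.

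Myh3 was the most abundant skeletal heavy chain gene, at 5.95 and 7.68 TPM with GDF10 and 7.13 and 9.71 TPM with vehicle (380 and 547 counts, against 520 and 581). Myh1 had 30 and 76 counts with GDF10 and 53 and 72 with vehicle, or 0.448 and 1.02 TPM against 0.693 and 1.15 TPM. Its lowest library was GDF10 replicate 1, and the groups overlapped. Myh7 had 15 and 6 counts with GDF10 and 13 and 18 with vehicle, with its lowest library GDF10 replicate 2. The embryonic isoform therefore took 90.7% and 87.5% of the summed per-length level of the 6 skeletal genes with GDF10, and 88.7% and 87.3% with vehicle.

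The other members were at or near the detection limit. Myh2, the IIa gene, had 0 and 2 counts with GDF10 and 3 and 4 with vehicle. Myh4 had 0 in both GDF10 libraries and 4 and 0 in the vehicle libraries, Myh11 had 0 in both GDF10 libraries and 2 and 0 with vehicle, and Myh14 had 0 in both GDF10 libraries and 0 and 2 with vehicle. Myh8, the perinatal gene, had 0 counts in all 4 libraries, which with a limit of 3 counts per library allows up to 0.0843 to 0.101 CPM, counts scaled to the library's total and not to length. Myhas and 9430073C21Rik, antisense genes that share exon bases with Myh1 and Myh2, were also at 0 in all 4. Absence of a count here limits the level at this depth and does not show that the gene was silent.

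**Figure D1:**
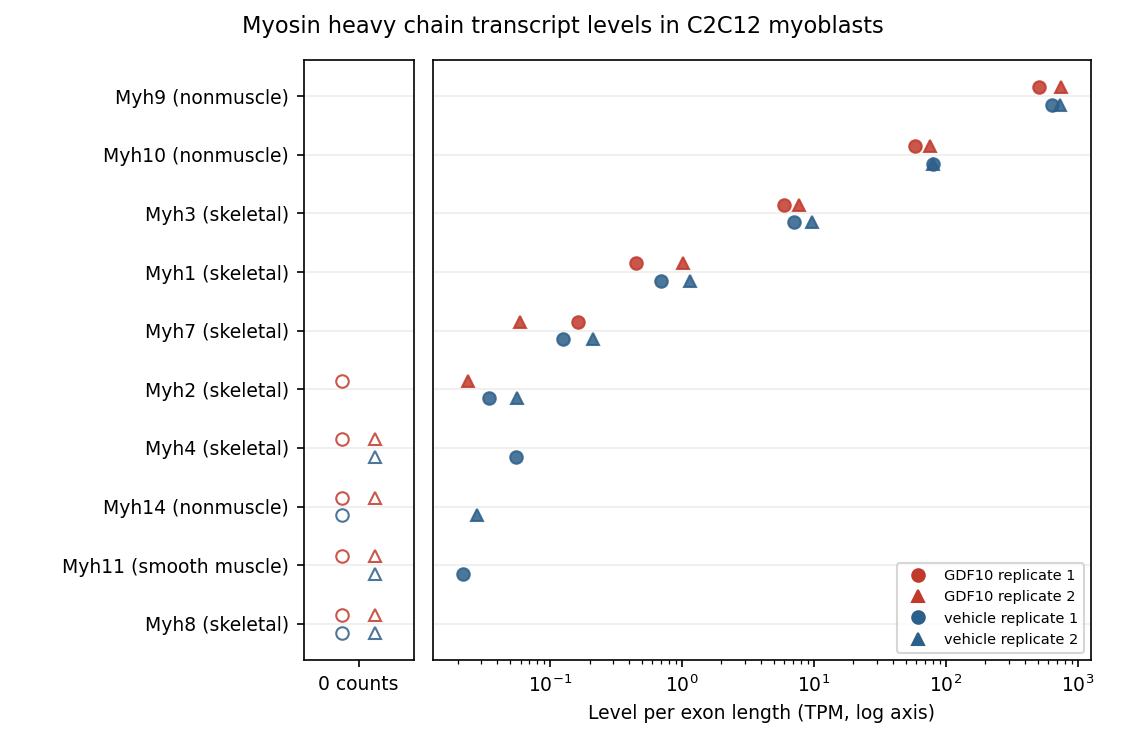
Level per exon length in TPM (log axis) of the 10 heavy chain genes, ordered by their mean over 4 libraries, with GDF10 points above vehicle points in each row and libraries without a count as open symbols on the left. Myh9 lies between 512 and 753 TPM, Myh10 between 58.7 and 80.4 TPM and Myh3 between 5.95 and 9.71 TPM, and Myh8 has 0 counts in every library.

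In descending order the mean levels were 661 TPM for Myh9, 73.7 for Myh10, 7.62 for Myh3, 0.826 for Myh1 and 0.140 for Myh7, and among these no member's range over the 4 libraries reached that of its neighbour. On exon length the first 3 steps had ratios of 8.97, 9.67 and 9.22. The lowest level of Myh7, 0.0593 TPM from 6 counts, lay only just above the highest of Myh2, 0.0567 TPM from 4 counts, so that step is not resolved beyond counting error. Myh2, Myh4, Myh14, Myh11 and Myh8 overlapped one another and have no order at this depth. With the longest transcript as length in place of all exons the means were 904 TPM for Myh9, 77.8 for Myh10, 6.02 for Myh3 and 0.679 for Myh1, so the steps were less even while the order was the same.

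The skeletal genes are close copies of one another, which bears on how reads were assigned. Coding sequences of Myh1, Myh2, Myh4 and Myh8 were 87.9% to 91.0% identical in pairs, those of Myh3 80.2% to 81.0% identical to them, and those of Myh9 and Myh10 74.0% identical to each other. Between a skeletal and a nonmuscle gene identity was 50.9% to 55.5%. Of all runs of 100 bases in the longest coding transcript, 14.7% occurred in a transcript of another gene for Myh1, 11.2% for Myh2, 6.61% for Myh8 and 3.85% for Myh4. For Myh7 the share was 13.9%, mostly with Myh6. For Myh3, Myh9 and Myh10 it was 1.15%, 0.314% and 0.3%. With runs of 50 bases the shares were 32.1% for Myh1, 28.9% for Myh2, 28.2% for Myh7, 21.4% for Myh8, 18.9% for Myh4 and 4.81% for Myh3. Some shared runs lie in antisense genes of the same locus, as did 321 of the 881 runs of 100 bases for Myh1, in Myhas. The counts of Myh1, Myh2, Myh4, Myh7 and Myh8 are uncertain for this reason, to an extent that the shares do not measure. The sources used here give neither the read length nor what was done with reads that match several genes.

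**Figure D2:**
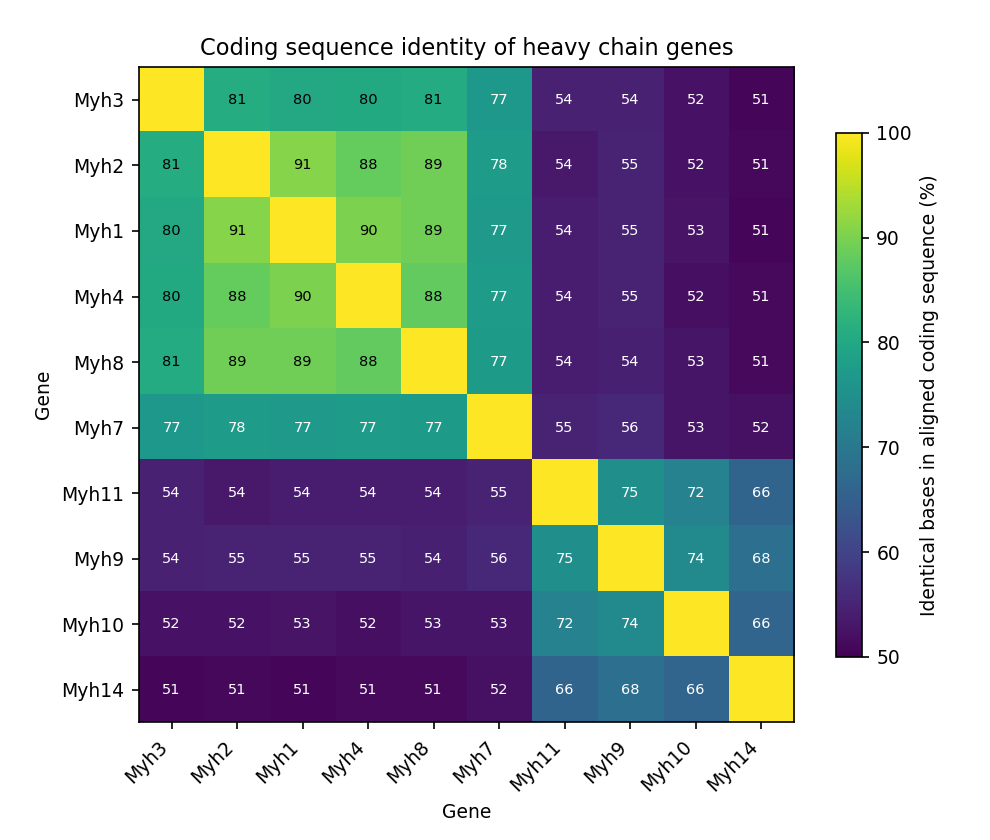
Percent of identical bases in the aligned coding sequences of each pair of heavy chain genes, with rows and columns grouped as the chromosome 11 skeletal genes, Myh7, Myh11 and the nonmuscle genes. The block of Myh2, Myh1, Myh4 and Myh8 reaches 87.9% to 91.0%, against 50.9% to 55.5% between skeletal and nonmuscle genes.

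The cells' labels call them muscle stem cells. Myoblast markers summed to 2253 and 2223 CPM with GDF10 and 2190 and 2169 CPM with vehicle, led by Des, while Pax7, the transcription factor of satellite cells, had 0 counts in all 4 libraries. Total counts were 29944193 and 35057429 with GDF10 and 35597310 and 29641165 with vehicle, and 15467 genes passed the filter on low counts. GDF10 replicate 1 stood apart by exon length: across tested genes the Spearman correlation between exon length and the deviation from the mean of the 4 libraries was −0.332 there, against 0.080 in GDF10 replicate 2, 0.114 in vehicle replicate 1 and 0.195 in vehicle replicate 2. Myosin heavy chain genes are long, so this library touches every comparison of them. By GC content the libraries split by group: the same correlation was 0.148 and 0.174 with GDF10 and −0.151 and −0.196 with vehicle. In bulk RNA, fewer cells of a type and less RNA per cell cannot be told apart.

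The comparison asked whether 6 h with GDF10 moved heavy chain transcripts. No member passed. Of the 10 genes, 5 passed the filter (Myh9, Myh10, Myh3, Myh1 and Myh7) and 0 of these had an adjusted p under 0.05 in edgeR's quasi-likelihood test with Benjamini-Hochberg adjustment over all 15467 genes, where 0.162% of all genes were called, 0.084% higher and 0.0776% lower. None of the 5 had an unadjusted p under 0.05, which 5.94% of all genes had, and 0 were called by DESeq2 (0.42% of all genes) or limma-voom (0.0711%). The log2 fold change was below 0 in all 5, with a median of −0.27, against 49.2% below 0 and a median of 0.0029 over all genes tested. For Myh9, Myh1 and Myh7 that sign changed when 1 library was left out.

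Myh10, nonmuscle IIB, had 216 and 268 CPM with GDF10 and 280.4 and 280.2 CPM with vehicle, and was the 1 tested member whose groups did not overlap. Groups that do not overlap were found in 38.2% of all genes tested. Its mean was 242 ± 37.1 CPM with GDF10 and 280.3 ± 0.168 CPM with vehicle (SD, n = 2 each), for a log2 fold change of −0.21 ± 0.11 (SE; edgeR adjusted p = 0.825). The 95% interval of the fold ran from 0.722 to 1.03. Without GDF10 replicate 2 the log2 fold change was −0.38 and the gene was called, at an edgeR adjusted p of 0.0431, in a fit that called 224 of 15980 genes or 1.4%. In that fit the lone GDF10 library is assumed to vary like the vehicle libraries, which alone supply the spread. Without GDF10 replicate 1 it was −0.063, with an edgeR adjusted p of 0.991, and with the exon length trend of each library removed it was −0.12.

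Myh9, nonmuscle IIA, averaged 2804 ± 675 CPM with GDF10 and 2985 ± 268 CPM with vehicle (SD, n = 2 each), for a log2 fold change of −0.090 ± 0.19 (SE; edgeR adjusted p = 0.950). The 95% interval of the fold, 0.645 to 1.37, does not exclude changes of that size in either direction. Its log2 fold change was 0.14 without GDF10 replicate 1, 0.0042 without vehicle replicate 2 and −0.36 without GDF10 replicate 2. With the exon length trend removed it was 0.012. The direction for Myh9 therefore hung on single libraries.

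Among the skeletal genes Myh3 averaged 14.2 ± 2.13 CPM with GDF10 and 17.1 ± 3.59 CPM with vehicle (SD, n = 2 each), for a log2 fold change of −0.27 (interval −0.70 to 0.17; edgeR adjusted p = 0.845). Its 4 fits that left out a library stayed below 0, from −0.47 without vehicle replicate 1 to −0.037 without vehicle replicate 2. For Myh1 the estimate was −0.28 (edgeR adjusted p = 0.918), and it was 0.16 without GDF10 replicate 1 and 0.11 without vehicle replicate 2. For Myh7 it was −0.54 (edgeR adjusted p = 0.894), and 0.056 without GDF10 replicate 2. The 95% interval of the fold was 0.393 to 1.72 for Myh1 and 0.241 to 1.96 for Myh7, and changes within these bounds are not excluded.

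**Figure D3:**
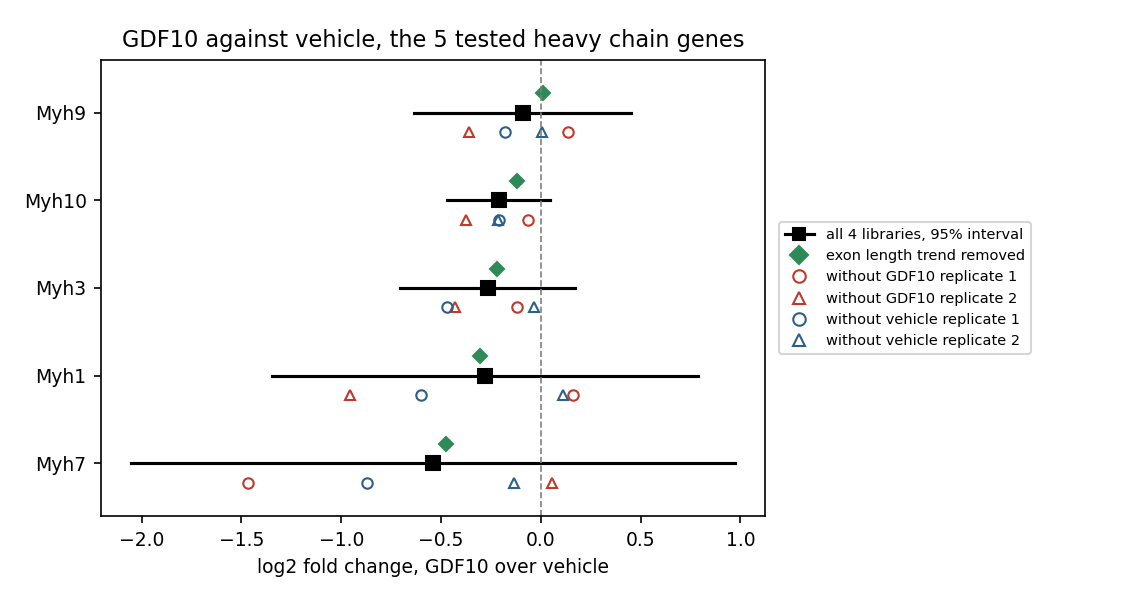
Log2 fold change of GDF10 over vehicle for the 5 tested heavy chain genes, with squares and lines for the estimate and 95% interval from all 4 libraries, open symbols for fits that left out 1 library, and diamonds for values with the exon length trend removed. All 5 intervals include 0, and the estimates that leave out a library change sign for Myh9, Myh1 and Myh7.

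Among the 5 tested members 4 had their lowest CPM in GDF10 replicate 1, as did 30.6% of all genes tested. That library lay 0.30, 0.27 and 0.28 below the mean of the 4 libraries in log2 CPM for Myh9, Myh10 and Myh3 and 0.71 below it for Myh1, while Myh7 lay 0.35 above it. The median gene with 12 to 20 kb of exons lay 0.16 below it there, one of 8 to 12 kb 0.093 below it and one of 6 to 8 kb 0.054 below it. The part of this length trend in the heavy chain values was not tested beyond removing it. After removal 4 of the 5 log2 fold changes were below 0 with a median of −0.22, against 0.0171 over all genes. With the GC content trend removed instead, all 5 were below 0. They were −0.145 for Myh9, −0.246 for Myh10, −0.291 for Myh3, −0.366 for Myh1 and −0.595 for Myh7. The part of the GC content trend was not tested beyond that.

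**Figure D4:**
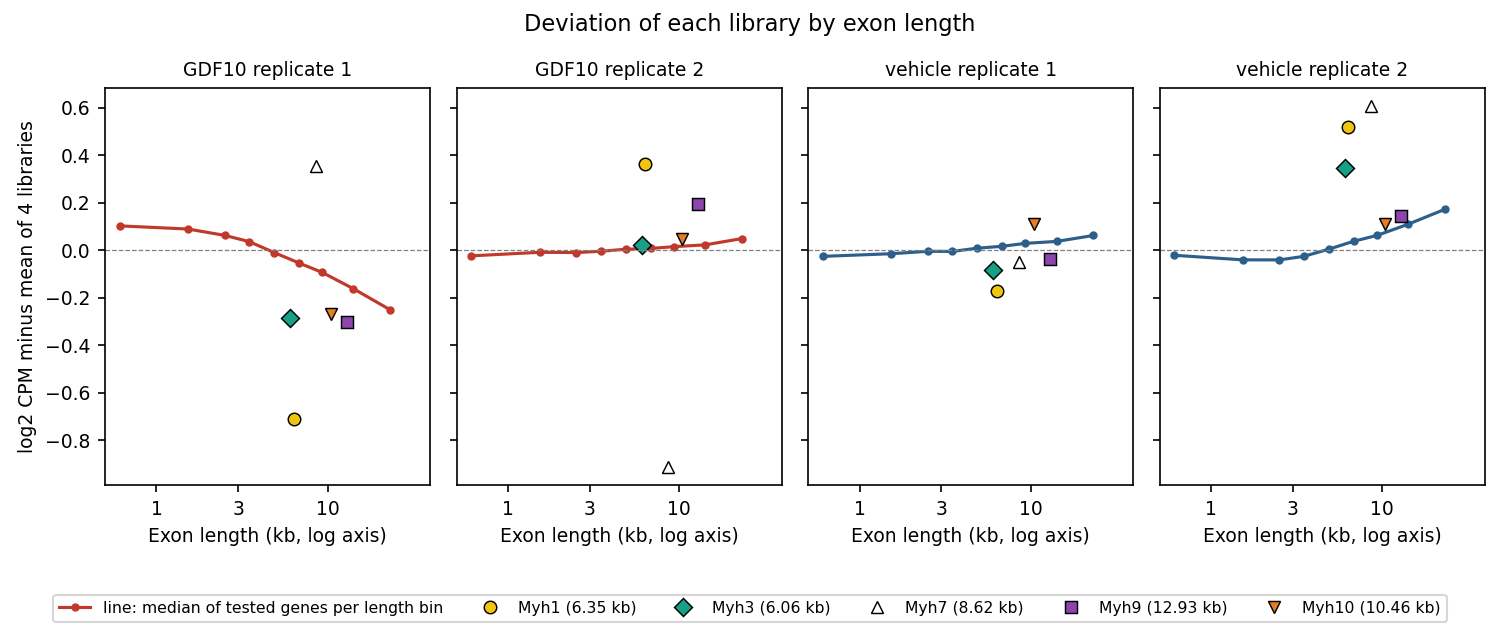
Log2 CPM minus the mean of the 4 libraries against exon length (kb, log axis), 1 panel per library, with the median of all tested genes in each length bin as a line and the 5 tested heavy chain genes as symbols. The line falls with length in GDF10 replicate 1 only, where Myh9, Myh10 and Myh3 lie 0.27 to 0.30 below 0, Myh1 lies 0.71 below 0 and Myh7 lies 0.35 above 0.

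Balance between isoforms does not depend on the scaling of libraries. It can still carry the exon length trend of a library, which was not removed from the ratios and shares below. Per exon length, Myh10 stood at 0.115 and 0.101 of the level of Myh9 with GDF10, and at 0.124 and 0.109 with vehicle, so the groups overlapped. The mean log2 ratio differed by −0.11, and by −0.20 to −0.019 when 1 library was left out (two-sided exact permutation p = 0.667, where 0.333 is the smallest that 2 against 2 libraries can give). The skeletal genes together made up 1.14% and 1.05% of the summed heavy chain level with GDF10 and 1.10% and 1.34% with vehicle, a difference of −0.13 percentage points (exact permutation p = 0.667). That difference was −0.25 without vehicle replicate 1 and −0.0090 without vehicle replicate 2. With the longest transcript as length these shares were 0.684% and 0.626% against 0.662% and 0.808%. In both the ratio and the share the groups overlapped.

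By the root mean square difference of mean-centred log2 CPM over the 4 libraries, Tln1, which encodes the integrin-linking protein talin, was nearest to Myh9 among 11660 protein-coding genes, at 0.00906, followed by Hecw2 and Lins1 at 0.0140 and 0.0141. Tln1 had 681 and 964 CPM with GDF10 and 825 and 921 CPM with vehicle. Myh10 was 0.107 from Myh9, and 513 genes were within 0.1. Nearest to Myh3 were Tor1b at 0.0198, Arhgap32 at 0.0207 and Pggt1b at 0.0250, with 194 genes within 0.1 and Myh1 at 0.291. With only 4 libraries many genes share such a pattern.

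Light chains were plentiful beside the heavy chains. Myl6, the essential light chain of nonmuscle and smooth muscle myosin, averaged 696 TPM over the 4 libraries and Myl12a, a regulatory light chain, 527 TPM. Summed per length, Myl6 and Myl6b stood at 1.26 and 0.837 of Myh9 plus Myh10 with GDF10 and 0.980 and 0.884 with vehicle. With the longest transcript as length these ratios were 0.787 and 0.520 with GDF10 and 0.611 and 0.550 with vehicle. Per exon length, the regulatory chains Myl9, Myl12a and Myl12b stood at 1.56 and 0.962 of Myh9 plus Myh10 with GDF10. With vehicle they stood at 1.04 and 0.980, so the groups overlapped. Of 12 light chain genes 8 were tested, 0 were called by edgeR (0.162% of all genes), and 0 had an unadjusted p under 0.05. Their log2 fold changes were positive in 7 and negative in 1, with a median of 0.136, against 0.0029 over all genes tested. Their median exon length was 2.42 kb, against 3.84 kb over all genes tested. With the exon length trend removed the median log2 fold change was 0.1, against 0.0171 over all genes, and again 7 were positive. Mylpf, the fast skeletal regulatory chain, had 60.1 and 56.6 CPM with GDF10 and 44.6 and 53.6 CPM with vehicle (edgeR adjusted p = 0.825). Myl12a and Myl12b had log2 fold changes of 0.17 and 0.18. Myl2, Myl3 and Myl7, chains of heart and slow muscle, had 0 counts throughout. Myl4, of the same list, had 433 and 491 counts with GDF10 and 472 and 426 with vehicle, a log2 fold change of 0.048.

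The tested skeletal light chains had positive and the tested skeletal heavy chains negative log2 fold changes, none of which passed the test. Myl1 plus Mylpf stood at 29.8 and 21.1 times the summed per-length level of Myh3 plus Myh1 with GDF10, against 19.0 and 16.3 times with vehicle. The groups did not overlap, with an exact permutation p of 0.333, the smallest this design allows. This ratio was not among the measures planned for testing. Of all the ratios and shares computed it was the only one whose groups did not overlap. The light chain genes are short, at 2.07 kb of exons for Myl1 and 1.06 kb for Mylpf, against 6.06 kb for Myh3 and 6.35 kb for Myh1, and the highest ratio came from GDF10 replicate 1, the library in which long genes were low. Markers of differentiating myocytes, 14 short genes of 0.8 to 3.6 kb that include both light chains, summed to 375 and 370 CPM with GDF10 and 298 and 335 CPM with vehicle. Of these 14, 0 were called, 13 had positive log2 fold changes with a median of 0.204, and 2 reached an unadjusted edgeR p below 0.05: Myog, the factor of terminal differentiation, at 0.43, and Acta1, skeletal actin, at 0.27. Over all genes tested 5.94% reached such a p and 49.2% had negative values, with a median of 0.0029. With the exon length trend removed the median was 0.171 with 12 positive. The part of length and of differentiation state in the ratio was not tested beyond these values.

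In the kinases and phosphatase that set light chain phosphorylation, 15 of 17 genes were tested, 0 were called by edgeR (0.162% of all genes) and 2 were lower at an unadjusted p under 0.05 (5.94% of all genes in either direction). Values were negative in 10 and positive in 5, with a median log2 fold change of −0.0672, against 0.0029 over all genes. Ppp1r14b, a phosphatase inhibitor, had a log2 fold change of 0.22. Ppp1cb, the catalytic subunit of myosin phosphatase, had 73.5 and 159 CPM with GDF10 and 191 and 199 CPM with vehicle, with GDF10 replicate 1 far below the other 3 libraries (log2 fold change −0.75, edgeR adjusted p = 0.850).

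Of 16 genes of folding and filament assembly 13 were tested and 0 were called, with 8 negative and 5 positive values and a median log2 fold change of −0.0555. At an unadjusted p under 0.05, 1 was lower (Hsp90aa1) and 1 higher (Mybph), beside 5.94% of all genes with such a p and 0.162% called. Hsp90aa1, whose chaperone folds the myosin motor together with UNC45 proteins, averaged 711 ± 2.11 CPM with GDF10 and 832 ± 33.5 CPM with vehicle (SD, n = 2 each; log2 fold change −0.23, edgeR adjusted p = 0.801). Hsp90ab1, the most abundant gene of the list, had a log2 fold change of −0.0096. S100a4, which binds the nonmuscle IIA tail, had one of 0.10. Mybph, a thick filament protein gene, had one of 0.33, and Ttn, the giant titin gene, −0.65 (interval −1.38 to 0.090; edgeR adjusted p = 0.825). Ttn has 117 kb of exons and had 24.0 and 34.5 CPM with GDF10 and 38.2 and 53.5 CPM with vehicle. With the exon length trend removed its log2 fold change was −0.295, and that of Mybph was 0.315. The part of length in the Ttn value was not tested beyond that. Among 22 regulators of fibre type and heavy chain genes 18 were tested and 0 called, with 10 negative and 8 positive values and a median of −0.0215. Myog, already given, was the 1 of these 18 with an unadjusted p under 0.05, against the same 5.94% of all genes and, for calls, 0.162%. Mef2d had a log2 fold change of −0.017 and Nfix, of the switch to fetal muscle genes, one of 0.072. Six4 had one of −0.17 and Mef2c, with 5 to 19 counts per library, 1.07.

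Markers of other tissues differed widely in level. The 8 smooth muscle markers summed to 3092 and 3015 CPM with GDF10 and 2882 and 3016 CPM with vehicle, 91.3% of it Acta2, while Myocd, the defining cofactor of smooth muscle, had 0 counts in all 4 libraries beside the 0 to 2 counts of Myh11. Synpo2, an actin-binding protein gene of that list, was the 1 gene called of 7 tested, against 0.162% of all genes, with 31.9 and 34.2 CPM in the GDF10 libraries and 16.7 and 13.8 CPM in the vehicle libraries (edgeR adjusted p = 0.0285). Tagln, the smooth muscle gene of transgelin, had 98.97 and 105.7 CPM with GDF10 and 112.1 and 131.7 CPM with vehicle, with an unadjusted edgeR p of 0.0343 and an adjusted p of 0.825. Mature fibre markers summed to 456 and 430 CPM with GDF10 and 433 and 412 CPM with vehicle, 76.0% of it Eno3. Heart markers summed to 106 to 123 CPM, 99% of it Tnnt2, with Myl7 at 0. Blood and leukocyte markers summed to 9.22 to 12.3 CPM, 46.3% of it Hba-a1, with Hbb-bs, Hbb-bt, Cd3e and Cd79a at 0. Hba-a1 had 183 and 164 counts with GDF10 and 149 and 125 with vehicle. Hba-a2 had 106 and 83 counts against 92 and 60, and Cd68 had 81 and 90 against 122 and 88. Endothelial and epithelial markers summed to 4.22 to 6.88 CPM, 88.9% of it Krt8, with Epcam at 0. Krt8 had 178 and 214 counts with GDF10 and 117 and 141 with vehicle, a log2 fold change of 0.59. Apart from Synpo2, no gene of these marker lists was called by edgeR. Fibroblast markers summed to 4098 and 4450 CPM with GDF10 and 3843 and 4190 CPM with vehicle, mostly Col3a1, with Tcf21 at 0.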

How the data were processed

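Groups and replicate numbers came from the sample titles. The authors deposited raw counts, whole numbers of reads for each gene. HISAT2 2.0 and StringTie 1.3.3b with build mm10, Trimmomatic 0.36, FastQC 0.11.2, DESeq2 1.12.4 and bedtools 2.26.0 are named in the submitters' processing notes, without a role. What counted the reads, on which annotation and whether by strand, is not given in the sources used here. GENCODE M21 named 51633 of 51826 identifiers and gave exon lengths. The other 193 have no TPM.

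Counts were filtered with filterByExpr (at least 10 counts in 2 libraries and 15 in total), scaled by TMM and tested with edgeR 4.0.16 in R 4.3.3 (robust quasi-likelihood, no covariates, adjusted p under 0.05 over all genes). Alternatives used DESeq2 1.42.0, limma 3.58.1, other scalings and filters, a block for replicate number, leaving out each library, and log2 CPM (prior count 2) with each library's loess trend (span 0.3) with exon length or GC content removed. Coding sequences were aligned with MAFFT 7.526. The edgeR step was also run on simulated counts. Each p-value reflects only how these 4 libraries vary. A limit of 3 counts covers counting error only.

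The 10 members and all lists were chosen with earlier results of these data known. All members are named. From each list of partner genes the text names called genes, the 3 of lowest p and the 3 of highest CPM, and it names the 3 genes nearest to Myh9 and to Myh3. Among the markers, those at 0 follow the rule. Acta1, Synpo2, Tagln, Hba-a2, Cd68, the light chain gene Myl4 and the leading gene of a list were named after their values were seen. Some genes that this rule names are not reported here.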

Additional observations from a re-analysis of the deposited data

How the results depend on the processing

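The count of called genes was 25. It was 65 with DESeq2, 11 with limma-voom, 9 without robust dispersions, 9 with the GC content trend removed and 6 at a threshold of 0.01, and ran from 27 to 224 over the fits that left out 1 library. The other scalings, filters and settings gave counts within 1.5 times of 25. The count of called heavy chain genes was 0 under every alternative except without GDF10 replicate 2, where it was 1 (Myh10), so the fits that left out 1 library ran from 0 to 1. Log2 fold changes turned positive for Myh1 without GDF10 replicate 1 (0.16) and without vehicle replicate 2 (0.11), for Myh7 without GDF10 replicate 2 (0.056), and for Myh9 without GDF10 replicate 1 (0.14), without vehicle replicate 2 (0.0042) and with the exon length trend removed (0.012). Leaving out GDF10 replicate 2 gave the lowest values for Myh1 (−0.96) and Myh9 (−0.36), and leaving out GDF10 replicate 1 that for Myh7 (−1.47). The values of Myh3 and Myh10 stayed negative in all 18 alternatives each, at −0.47 to −0.037 and −0.38 to −0.063. Among these, the changed thresholds and the summing of overlapping genes could not change a log2 fold change. The cause of these shifts was not tested. The log2 ratio of Myh10 to Myh9 and the skeletal share kept their direction under all alternatives run, but not their size. Removal of the exon length trend was not among the alternatives run for them. The ratio ran from −0.204 (without vehicle replicate 2) to −0.0191 (without vehicle replicate 1), with −0.202 without GDF10 replicate 1 and −0.0206 without GDF10 replicate 2. The share ran from −0.251 to −0.00897 percentage points, with −0.0803 on the longest transcript and −0.0652 without length scaling. For the ratio, the choice of length and the replicate block leave the difference at −0.111 by construction. The replicate block likewise cannot move the difference in the share.

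Across all genes tested, deviations of same-numbered libraries from their group means correlated at 0.070, which does not settle pairing for single genes. Replicate 2 was above replicate 1 in both groups for Myh9, Myh3 and Myh1, but not for Myh7 and Myh10. With the replicate block 23 genes were called, 0 of them heavy chain genes. The block lowered the unadjusted edgeR p from 0.192 to 0.0713 for Myh3 and from 0.0933 to 0.0524 for Myh10. For Myh9 that p fell from 0.667 to 0.267 and for Myh1 from 0.545 to 0.262, while for Myh7 it was 0.428 and 0.437. With 30 to 76 counts for Myh1 and 6 to 18 for Myh7, depth limits what can be seen in these genes.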

Other observations

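Heavy chain genes outside the 10 were near the detection limit as well. Myh7b had 2 and 5 counts with GDF10 and 4 and 8 with vehicle, Myh6, the alpha chain of the heart, had 1 and 1 with GDF10 and 4 and 0 with vehicle, and Myh13 had 0 and 1 with GDF10 and 1 and 0 with vehicle. Myh15 had 0 counts in all 4 libraries. None of these passed the filter on low counts.

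Genes that lie within members or share their exon bases added almost nothing to the table. Mir208b, the microRNA gene inside Myh7, and Mhrt, an antisense RNA gene known from mouse heart, had 0 counts in all 4 libraries, and Mir6923, inside Myh3, had 0 and 1 with GDF10 and 1 and 0 with vehicle. Summing the genes that share exon bases with the members therefore left the 5 tested log2 fold changes as they were.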
